A study of Mus musculus with 8 samples.

Results

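Oxidative phosphorylation in mitochondria runs through 5 enzyme complexes of the inner membrane. Complex II (succinate dehydrogenase) passes electrons from succinate to ubiquinone, complex III (the cytochrome bc1 complex) passes them to cytochrome c, and complex IV (cytochrome c oxidase) passes them to oxygen. Complex V (ATP synthase) uses the resulting proton gradient to make ATP, which neurons consume in large amounts for ion pumping and synaptic transmission. All subunits of complex II, and most of complexes III to V, are encoded in the nucleus; only those nuclear transcripts are described here.

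Members were all genes of the deposited table whose symbol begins with Uqcr, Cox4 to Cox8 or Atp5, or is Sdha, Sdhb, Sdhc or Sdhd. This gave 48 of the 22869 gene symbols, in 52 of 28644 rows, and a gene with several rows was read from the one with the largest mean count. By their known products, 4 belong to complex II, 8 to complex III, 18 to complex IV and 15 to complex V. The remaining 3 match by name only. Atp5s and Atp5sl carry the RefSeq names Dmac2l and Dmac2, and Cox4nb, now Emc8, is named for its position beside Cox4i1. After the low-count filter 47 of the 48 were tested; Cox8c, the testis form of subunit 8, had a count of 0 in all 8 libraries.

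The tissue was cortex of APP/PS1 mice (C57BL/6 strain), which carry transgenes for mutant human amyloid precursor protein and presenilin and form amyloid plaques. Both groups carry them, and no mice without the transgenes are in the series. One group of 4 libraries received bexarotene, which activates retinoid X receptors, and the other 4 received glycerol at 0.2 mg/kg (vehicle). The sources used here give no age, sex, bexarotene dose or duration, and do not say whether a library is 1 animal, so each p-value reflects the spread over these libraries alone, which may be technical.

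Total counts over the table's rows ranged from 42413825 in vehicle replicate 1 to 76542067 in bexarotene replicate 4. Levels are in CPM, read counts per 1000000 of the TMM-adjusted library size. The 8 cortical neuron markers were abundant everywhere, at a summed 4700 to 7390 CPM. The 7 striatal markers measured summed to 856, 618 and 465 CPM in bexarotene replicates 1 and 3 and vehicle replicate 1, against 176 to 226 CPM elsewhere. The 6 choroid plexus markers summed to 88.0, 1450, 74.8 and 226 CPM in the bexarotene libraries and 15.8, 41.3, 25.1 and 39.2 CPM in the vehicle libraries, so that every treated sum exceeded every vehicle sum. Most of each treated sum was Ttr, at 68, 1400, 58.7 and 213 CPM, against 6.14, 33, 14.8 and 26.3 CPM in vehicle libraries. Only 1 of the 6 markers, Ttr, had separate groups by itself. Vehicle replicates 1 and 3 held Xist (248 and 307 CPM) with at most 0.282 CPM of 4 Y-linked genes, vehicle replicates 2 and 4 held the reverse (at most 0.861 and at least 134 CPM), and all 4 bexarotene libraries held both (84.7 to 218 CPM of Xist, 9.81 to 88.5 CPM of the Y-linked genes). Main values are also given within replicates 1 and 3 and within replicates 2 and 4, as differences in mean log2 CPM. This split does not balance the groups. In each part, treated libraries with both Xist and Y-linked RNA face vehicle libraries with mainly 1 of them. Vehicle replicate 3, at 221 CPM, also lacked the striatal level of bexarotene replicates 1 and 3. In bulk tissue, fewer cells of a type and less RNA per cell cannot be told apart.

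Most subunit transcripts were slightly higher under bexarotene, and none passed the test over all genes. Of the 47 members tested, 43 had a positive log2 fold change, where 50.2% of all genes did. By edgeR's quasi-likelihood test 0 members passed (adjusted p below 0.05), against 0.00622% of all genes tested (1 of 16069). At an unadjusted p below 0.05, 17 members were higher (4.88% of all genes) and 0 lower (3.89%). In 16 members every bexarotene library lay above every vehicle library, where 3.61% of all genes did so, and in 0 members the reverse held (2.16% of all genes). DESeq2 called 6 members higher (Atp5k, Atp5o, Atp5h, Cox6c, Uqcrh and Uqcr10) and 0 lower, against 0.407% and 0.118% of all genes. Of these 6, edgeR's exact test called Atp5k and Atp5h, and 0 lower, against 0.18% and 0.0124% of all genes.

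The 4 complexes ranked by median log2 fold change as IV (0.31), III (0.19), V (0.14) and II (0.12), beside 0.00 over all genes tested. Complex IV had the highest median under all 21 alternatives to the processing, while III exceeded V in 15 of them. The 10 constitutive subunits of complex IV had a median of 0.27, and its 6 tested tissue-restricted isoforms (0.25 to 4.71 CPM) had 0.49. Among members under 1000 nt the medians were 0.31 for IV, 0.29 for III and 0.24 for V. Among members of 1000 nt or more they were 0.28 for IV (2 members), 0.14 for V, 0.12 for II and 0.08 for III. Groups were separate, with bexarotene higher, in 7 of 17 tested members of complex IV, 6 of 15 of complex V, 3 of 8 of complex III and 0 of 4 of complex II. Over all genes tested the share was 3.61%, and over genes under 1000 nt 12.8%. Genes of 1 complex are not replicates, so the difference between complexes was not tested.

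**Figure D1:**
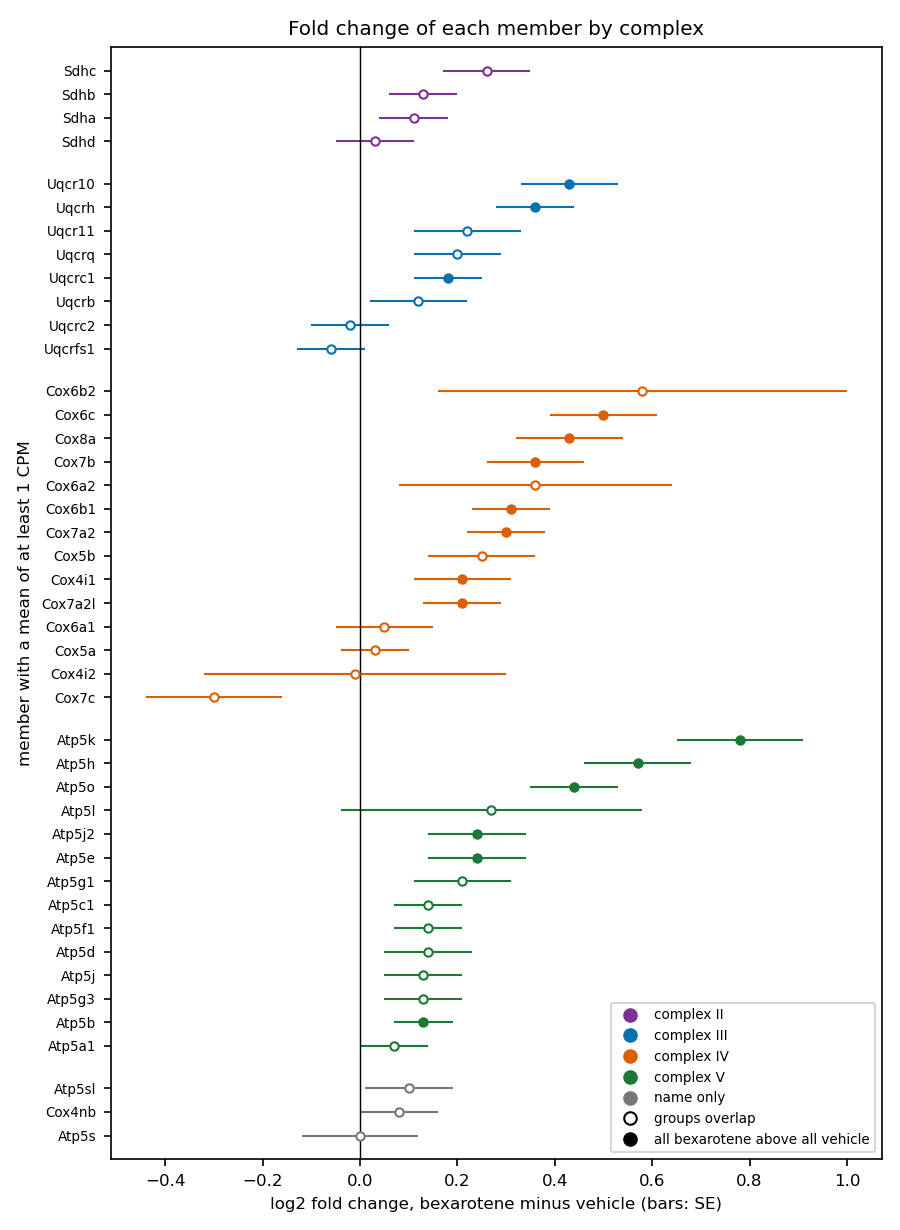
Log2 fold change (x axis, bexarotene minus vehicle, bars SE) of the 43 tested members with a mean of at least 1 CPM, by complex; filled points mark members whose 4 bexarotene libraries all lie above the 4 vehicle libraries. Of these 43, 39 lie right of 0, Atp5k has the highest value (0.78) and Cox7c the lowest (-0.30).

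Together, the subunits took up 0.752 ± 0.0355% of each bexarotene library's counts and 0.657 ± 0.0176% of each vehicle library's (SD, n = 4, 1 row per gene). By library, in replicate order, the treated shares were 0.797, 0.741, 0.758 and 0.712% and the vehicle shares 0.636, 0.675, 0.667 and 0.649%. The groups did not overlap in this share. Complex V held the largest part (0.359 ± 0.0168% against 0.320 ± 0.00933%), followed by complex IV (0.211 ± 0.0107% against 0.175 ± 0.0162%), complex III (0.104 ± 0.00585% against 0.0920 ± 0.00207%) and complex II (0.0780 ± 0.00274% against 0.0705 ± 0.00278%; SD, n = 4 throughout).

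Nuclear genes of oxidative phosphorylation are known to be served by NRF1 and the ETS factor GABP, so promoters of 6 members with separate groups are shown, 4 with such letters and 2 without. The RefSeq promoter table (GRCm38.p6; 250 bases before the start of transcription to 50 after) held 37 of the 48 members. On either strand, the ETS core CCGGAAG occurred in 12 of the 37 (32.4%), against 9.93% of all 27025 genes in the table. The NRF1 core GCGCATGC occurred in 7 (18.9%, against 3.05%), the YY1 core AAGATGGC in 4 (10.8%, against 3.19%) and the nuclear receptor motif AGGTCA in 9 (24.3%, against 18.1%). The NRF1 core reads nearly the same on both strands, so that its 2 matches in Atp5k overlap each other. Of the 16 members with separate groups 14 were in the table; 6 of these held the ETS core, and Atp5b, Atp5o, Cox7a2, Cox7a2l and Uqcr10 held none of the motifs. In the sequences below, written 5′ to 3′ along the gene's strand with these motifs in capitals, Atp5k held the NRF1, ETS and nuclear receptor letters, and Atp5h, Cox8a and Uqcrh held the ETS core, in Cox8a at 2 places; Atp5o and Uqcr10 have no capitals.
Atp5o, minus strand, chr16:91931581-91931880: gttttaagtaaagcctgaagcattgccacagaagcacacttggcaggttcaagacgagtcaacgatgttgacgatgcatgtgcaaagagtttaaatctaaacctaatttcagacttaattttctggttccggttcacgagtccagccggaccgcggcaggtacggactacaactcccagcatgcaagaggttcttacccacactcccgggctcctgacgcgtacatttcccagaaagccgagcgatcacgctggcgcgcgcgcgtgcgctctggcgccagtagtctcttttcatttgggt
Uqcr10, minus strand, chr11:4704295-4704594: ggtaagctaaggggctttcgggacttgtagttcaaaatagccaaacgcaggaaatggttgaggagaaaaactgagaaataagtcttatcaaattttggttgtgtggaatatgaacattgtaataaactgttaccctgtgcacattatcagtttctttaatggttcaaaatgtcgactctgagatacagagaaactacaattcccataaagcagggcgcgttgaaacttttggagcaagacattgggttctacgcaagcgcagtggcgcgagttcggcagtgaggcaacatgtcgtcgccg
Atp5k, minus strand, chr5:108434350-108434649: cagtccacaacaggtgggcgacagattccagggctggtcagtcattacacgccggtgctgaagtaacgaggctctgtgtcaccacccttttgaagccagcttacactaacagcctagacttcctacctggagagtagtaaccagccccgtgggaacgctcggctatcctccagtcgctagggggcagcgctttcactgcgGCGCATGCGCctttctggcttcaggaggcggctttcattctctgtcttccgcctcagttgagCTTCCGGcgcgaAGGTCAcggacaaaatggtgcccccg
Atp5h, minus strand, chr11:115419870-115420169: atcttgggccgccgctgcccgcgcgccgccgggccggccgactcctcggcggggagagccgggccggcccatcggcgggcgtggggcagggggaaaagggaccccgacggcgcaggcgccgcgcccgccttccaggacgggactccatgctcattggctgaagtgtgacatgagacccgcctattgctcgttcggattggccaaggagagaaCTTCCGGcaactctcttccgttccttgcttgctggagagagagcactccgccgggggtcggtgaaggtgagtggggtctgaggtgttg
Cox8a, minus strand, chr19:7217567-7217866: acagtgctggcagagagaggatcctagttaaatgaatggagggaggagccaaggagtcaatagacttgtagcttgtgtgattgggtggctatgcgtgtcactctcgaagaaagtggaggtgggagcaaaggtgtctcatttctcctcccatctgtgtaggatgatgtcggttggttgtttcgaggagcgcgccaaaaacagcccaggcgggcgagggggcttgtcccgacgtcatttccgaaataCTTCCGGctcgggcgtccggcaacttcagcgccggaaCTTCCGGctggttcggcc
Uqcrh, minus strand, chr4:116075021-116075320: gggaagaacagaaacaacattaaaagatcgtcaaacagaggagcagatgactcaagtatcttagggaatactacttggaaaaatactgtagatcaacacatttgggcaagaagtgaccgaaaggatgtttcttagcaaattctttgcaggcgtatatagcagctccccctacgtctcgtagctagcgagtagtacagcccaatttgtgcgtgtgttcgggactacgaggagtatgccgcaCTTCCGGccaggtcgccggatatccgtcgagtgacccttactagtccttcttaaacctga

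Fold changes of members with and without a motif were not compared by a test. The median log2 fold change was 0.26 over the 12 members with the ETS core and 0.18 over the 25 without it. It was 0.18 with the NRF1 core (7 members) and 0.22 without (30), 0.14 with the YY1 core (4) and 0.22 without (33), and 0.25 with the nuclear receptor motif (9) and 0.20 without (28).

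Complex II is the smallest of the 4 and its transcripts had a median length of 2070 nt, against 955 nt in complex III, 838 nt in V and 618 nt in IV; all its members had overlapping groups. Sdha, the flavoprotein that oxidises succinate, measured 310, 324, 301 and 320 CPM in the treated libraries and 296, 288, 310 and 270 CPM in the vehicle libraries, in replicate order here and below. The groups overlapped through vehicle replicate 3, and the log2 fold change was 0.11 ± 0.07 (SE). Sdhb, the iron-sulfur subunit, had 0.13 ± 0.07, with 88.2 to 95.8 CPM under bexarotene and 83.8 to 88.7 under vehicle. The membrane anchor Sdhc measured 80.9, 73.8, 76.1 and 63.0 CPM with bexarotene and 62.1, 57.7, 61.7 and 64.3 CPM with vehicle. Bexarotene replicate 4 was the 1 treated library within the vehicle range; the log2 fold change of 0.26 ± 0.09 had an adjusted p = 0.483 (edgeR). Its partner anchor Sdhd measured 51.2, 54.3, 49.0 and 50.9 CPM against 53.0, 45.7, 50.6 and 51.9 CPM. These ranges coincide, and the log2 fold change was 0.03 ± 0.08. Over the 4 genes the median was 0.10 for replicates 1 and 3 and 0.14 for replicates 2 and 4.

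Within complex III the small accessory subunits and the large core subunits differed in value. The 5 small subunits (Uqcr10, Uqcr11, Uqcrb, Uqcrh, Uqcrq) had a median log2 fold change of 0.22 and a range of 0.12 to 0.43. The 3 others, the core proteins Uqcrc1 and Uqcrc2 and the Rieske iron-sulfur protein Uqcrfs1, had 0.18, -0.02 and -0.06. Median transcript lengths were 535 and 1650 nt. These sets were not compared by a test.

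Uqcrh, the hinge protein at cytochrome c1, measured 91.4, 85.6, 88.1 and 79.3 CPM in treated libraries and 61.8, 69.3, 70.5 and 67.3 CPM in vehicle libraries. No treated library reached down to a vehicle one. Its fold change was 1.28 (log2 0.36 ± 0.08, SE), with an adjusted p = 0.36 (edgeR). Uqcr10, which sits beside cytochrome c1, measured 79.7, 64.7, 71.3 and 66.3 CPM with treatment and 49.4, 59.3, 54.2 and 46.0 CPM without. Again no libraries overlapped, with vehicle replicate 2 closest to the treated ones (log2 fold change 0.43 ± 0.10, adjusted p = 0.375). Uqcrc1 was at 188 to 199 CPM against 165 to 177 CPM, also without overlap, a log2 fold change of 0.18 ± 0.07. Uqcrfs1, which carries electrons to cytochrome c1, averaged 77.8 ± 1.87 CPM with bexarotene and 81.2 ± 4.01 CPM with vehicle (SD, n = 4). Its log2 fold change of -0.06 ± 0.07 was the lowest in the complex.

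Complex IV spans constitutive nuclear subunits and isoforms known from other tissues. Of the 10 constitutive subunits, 9 had a positive log2 fold change (median 0.27) and 6 had separate groups, higher. Such separation occurred in 3.61% of all genes and in 12.8% of genes under 1000 nt. Cox4i1, which joins the complex early in assembly, was the most abundant by mean CPM, with 367, 338, 352 and 333 CPM in treated and 251, 325, 292 and 328 CPM in vehicle libraries. The groups were narrowly separate, with bexarotene replicate 4 just above vehicle replicate 4, and the log2 fold change of 0.21 ± 0.10 split into 0.41 for replicates 1 and 3 and 0.04 for replicates 2 and 4. Per kilobase of transcript, Cox8a and Cox4i1 were level, at 441 and 434 CPM per kb, with Cox6a1 at 402.

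Cox6c had the smallest unadjusted p of the complex, 8.08e-04 by edgeR (adjusted p = 0.36). This small accessory subunit measured 86.6, 97.2, 92.0 and 81.9 CPM with bexarotene, against 51.2, 69.3, 67.3 and 65.5 CPM with vehicle. All treated libraries lay above all vehicle ones, and vehicle replicate 1 was lowest; the log2 fold change was 0.50 ± 0.11 (SE), 1.41-fold. Cox8a, the form of subunit 8 made outside heart and muscle, was at 288, 273, 272 and 280 CPM against 174, 236, 186 and 233 CPM. The treated libraries lay close together, while vehicle replicates 1 and 3 lay well below 2 and 4. Its log2 fold change of 0.43 ± 0.11 was accordingly 0.64 for replicates 1 and 3 and 0.24 for replicates 2 and 4. Cox6b1, which faces the intermembrane space, was at 123 to 138 CPM against 95.2 to 113 CPM (0.31 ± 0.08), Cox7a2 at 83.3 to 90.3 against 62.7 to 77.7 (0.30 ± 0.08) and Cox7b at 66.1 to 73.2 against 47.3 to 62.1 (0.36 ± 0.10), all without overlap.

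The remaining constitutive subunits had lower values. Cox5b, a zinc-binding subunit, measured 17.9 to 19.9 CPM against 13.3 to 18.4 CPM, with overlap (0.25 ± 0.11). Cox6a1 measured 238, 228, 227 and 239 CPM in treated and 186, 252, 219 and 246 CPM in vehicle libraries, with vehicle replicates 2 and 4 above every treated library. Its log2 fold change was 0.05 ± 0.10, and it was -0.17 with an offset for transcript length and GC content. Cox5a, at 101 ± 2.91 and 99.0 ± 4.39 CPM (SD, n = 4), had 0.03 ± 0.07. Cox7c was the 1 member well below 0, with 5.89, 4.51, 5.08 and 5.62 CPM in treated and 6.84, 5.56, 6.67 and 6.95 CPM in vehicle libraries. The groups overlapped through vehicle replicate 2, and the log2 fold change of -0.30 ± 0.14 had an adjusted p = 0.594 (edgeR). Its level per kb was 10.9 CPM against 121 for Cox7a2. Small subunit genes such as Cox7c, Atp5l and Atp5g2 have processed copies in the genome. Reads shared with a copy can be split or dropped in counting. The part of this in the values of these or other members was not tested.

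Isoforms of other tissues were scarce. Cox6a2 and Cox7a1, the heart and muscle forms of subunits 6a and 7a, were at 4.71 and 0.936 CPM on average, against 230 and 79.5 CPM for Cox6a1 and Cox7a2. Cox4i2, known from lung and for its induction by low oxygen, averaged 1.64 ± 0.457 CPM with bexarotene and 1.65 ± 0.489 CPM with vehicle (SD, n = 4), against 323 CPM on average for Cox4i1. Cox6b2, a testis form, was at 1.66 ± 0.628 and 1.11 ± 0.471 CPM, against 119 CPM on average for Cox6b1. Cox8b, the heart and muscle form of subunit 8, had counts of 25, 57, 15 and 28 in the treated libraries and 11, 0, 7 and 0 in the vehicle libraries, which overlap between bexarotene replicate 3 and vehicle replicate 1 in CPM. Cox7b2, another testis form, averaged 0.250 CPM. The 12 muscle markers summed to 28.8 to 50.3 CPM in treated and 28.1 to 38.0 CPM in vehicle libraries, and its part in these isoforms was not tested. Cox7a2l is a relative of subunit 7a, known as a factor that can join complexes III and IV into supercomplexes. Whether it does so in this strain was not tested. Its transcript measured 67.6, 59.7, 66.7 and 59.8 CPM in treated and 55.4, 56.0, 51.7 and 56.5 CPM in vehicle libraries. All treated values were above all vehicle values, and its log2 fold change was 0.21 ± 0.08 (adjusted p = 0.506, edgeR's quasi-likelihood test).

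**Figure D2:**
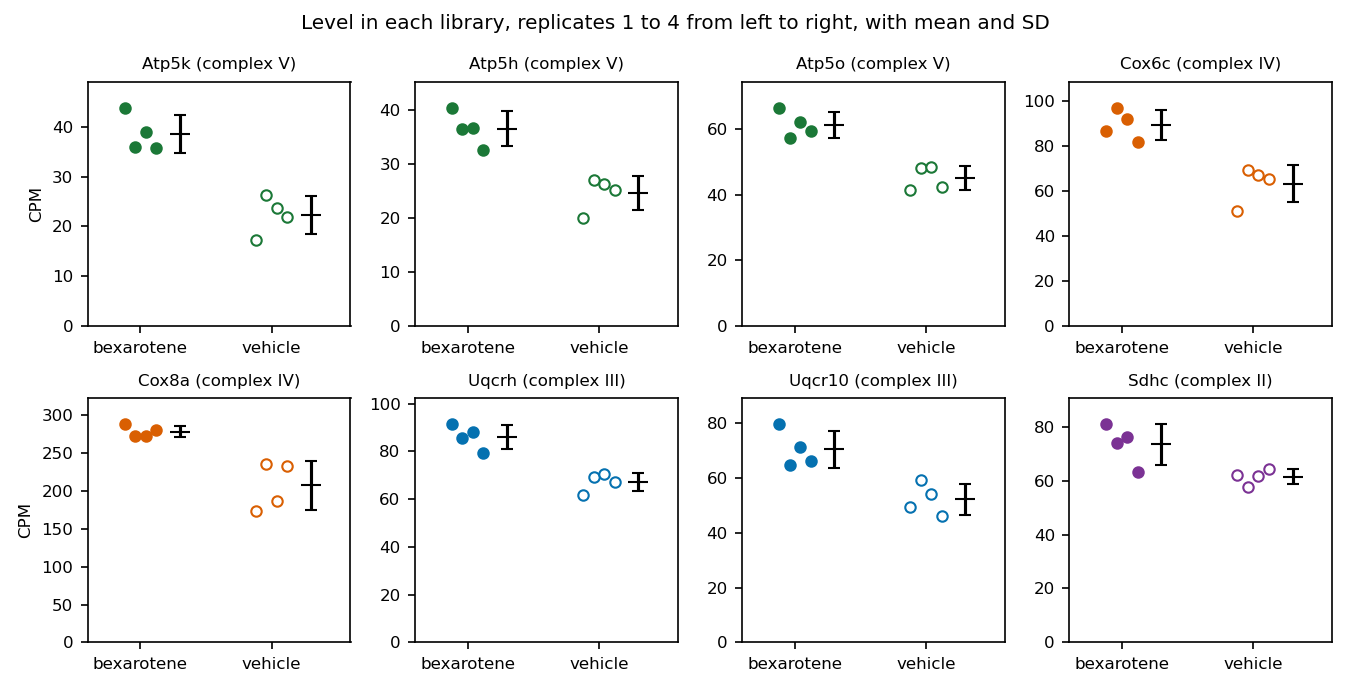
CPM (y axis, from 0) of 8 members in each library, with mean and SD (n = 4) beside the points; filled points are bexarotene and open points vehicle, replicates 1 to 4 from left to right. The groups are separate in 7 panels, and Sdhc overlaps through bexarotene replicate 4.

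In ATP synthase all 15 subunits had a positive log2 fold change, from 0.07 to 0.78. Of all genes tested 50.2% were positive, and of genes under 1000 nt 73%. With an offset for transcript length and GC content, Atp5g2 (-0.12), Atp5j (-0.08), Atp5g3 (-0.05) and Atp5d (-0.03) turned negative. Atp5e then stood at 0.00, and the other subunits stayed positive. The 5 subunits of the catalytic head and central stalk had a median of 0.14, the 4 of the peripheral stalk 0.29, the 3 genes for the c ring 0.13 and the 3 small membrane subunits 0.27; these parts were not compared by a test, and the stalk's own values ranged from 0.13 to 0.57. Atp5b, the catalytic beta subunit and the most abundant member by CPM, measured 888, 874, 831 and 870 CPM with bexarotene and 801, 804, 784 and 773 CPM with vehicle. The groups were separate, but the difference was small, 1.09-fold (log2 0.13 ± 0.06). Atp5a1, the alpha subunit, was at 634 to 659 CPM against 581 to 636 CPM, which overlap at vehicle replicate 3 (0.07 ± 0.07). Atp5c1 and Atp5d, of the central stalk, both had log2 fold changes of 0.14 and overlapping groups. The groups of Atp5e, the epsilon subunit, were separate only by a margin, from 64.2 to 77.3 CPM and from 49.9 to 63.4 CPM; its log2 difference was 0.46 in replicates 1 and 3 and 0.04 in the other two. Atp5j2, the f subunit of the membrane part, had the like pattern, with 62.1 to 74.2 against 47.0 to 61.8 CPM and differences of 0.45 and 0.04.

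Atp5k, the small e subunit, which helps ATP synthase form dimers, had the highest log2 fold change of the tested members above 1 CPM. Treated libraries held 43.9, 35.9, 39.0 and 35.7 CPM, and vehicle libraries 17.3, 26.4, 23.8 and 22.0 CPM. The lowest treated library was thus well above the highest vehicle library. The fold change was 1.72 (log2 0.78 ± 0.13, SE), and its unadjusted edgeR p of 1.28e-04 ranked 7 among the 16069 genes (0.341 after adjustment). Replicates 1 and 3 alone gave a log2 difference of 1.02, and replicates 2 and 4 alone 0.57.

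The peripheral stalk, which holds the catalytic head still, held the next values within complex V. Atp5h, its d subunit, measured 40.4, 36.5, 36.6 and 32.6 CPM with bexarotene and 19.9, 27.0, 26.3 and 25.2 CPM with vehicle. Treated and vehicle libraries did not overlap (0.57 ± 0.11, adjusted p = 0.36, edgeR). Atp5o, the subunit that joins the stalk to the head, was at 66.5, 57.2, 62.0 and 59.5 CPM against 41.3, 48.1, 48.4 and 42.3 CPM. These groups were also separate (0.44 ± 0.09, adjusted p = 0.36). The other stalk subunits had lower values, 0.14 ± 0.07 for Atp5f1 and 0.13 ± 0.08 for Atp5j, with overlapping groups.

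The c ring, whose rotation drives ATP synthesis, is encoded by 3 genes for the same mature protein. Atp5g3 supplied most of it by CPM, averaging 176 ± 13.9 in treated and 161 ± 6.71 in vehicle libraries (SD, n = 4). Atp5g1 was at 17.6 ± 0.950 and 15.2 ± 1.33 CPM, and Atp5g2 at 0.614 ± 0.127 and 0.573 ± 0.182 CPM. The Atp5g1 row used is a transcript of 4715 nt, the gene's other row a shorter one. In all 3 genes the groups overlapped, with log2 fold changes of 0.13 ± 0.08, 0.21 ± 0.10 and 0.10 ± 0.40.

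Libraries contributed unequally. Of the 44 subunits tested, vehicle replicate 1 was the lowest of the 8 libraries in 22 and bexarotene replicate 1 the highest in 23. Relative to the mean of the 8 libraries, the median subunit level (log2 scale) stood at 0.19, 0.10, 0.14 and 0.02 in treated libraries and at -0.23, -0.06, -0.06 and -0.09 in vehicle libraries. Every treated median exceeded every vehicle median. The median log2 fold change was 0.16 without vehicle replicate 1 and 0.18 without bexarotene replicate 1, against 0.21 with all libraries. For complex V it was 0.14 with all libraries and 0.27 without vehicle replicate 2. Of the 47 members, 42 were positive in replicates 1 and 3 and 37 in replicates 2 and 4. The difference was larger within replicates 1 and 3 in 35 members.

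**Figure D3:**
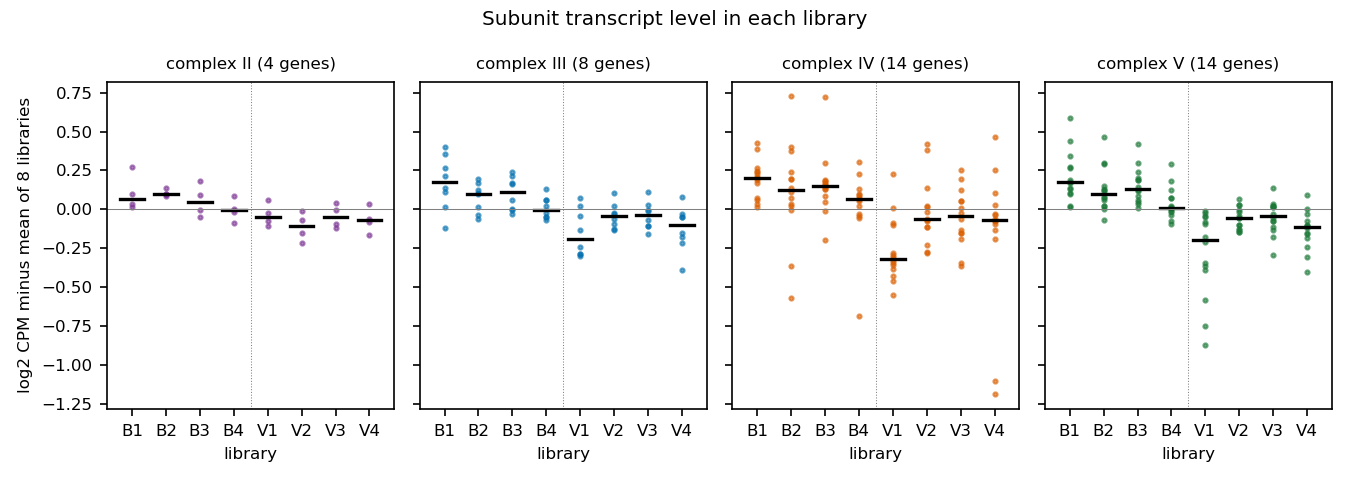
Log2 CPM relative to the mean of the 8 libraries (y axis) for the 40 subunits with a mean of at least 1 CPM, by library (B1 to B4 bexarotene, V1 to V4 vehicle); points are genes and black bars medians. The median of vehicle replicate 1 is lowest in complexes III, IV and V, and that of vehicle replicate 2 in complex II.

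Fold changes of the members went with transcript length, as they did across the transcriptome. Across the 47 members tested, Spearman's rho between log2 fold change and length was -0.52, and across 11453 genes above 2 log2 CPM it was -0.47. Genes share libraries and are not replicates. Libraries of 1 group differed in this. By library, in replicate order, rho with length over the 11453 genes was -0.42, 0.03, -0.43 and 0.03 with bexarotene. With vehicle it was 0.31, 0.07, 0.10 and 0.28. The 29 tested members under 1000 nt had a median log2 fold change of 0.27 with 27 positive, beside 0.19 and 73% positive for all 1143 genes of that length. The 18 members of 1000 nt or more had 0.13 with 16 positive, beside -0.01 and 48.5% positive for all 14610 such genes. Separate groups, higher under bexarotene, were found in 12 of the 29 short members, where 12.8% of all short genes had them, and in 4 of the 18 long members, where 2.90% of all long genes had them. A fit with an offset for length and GC content in each library gave medians of 0.12 for complex IV, 0.06 for complex V and 0.04 for complexes III and II, with 34 of 47 members positive (49.3% of all genes in that fit) and 8 with separate groups, higher (2.44% of all genes). These 8 were Atp5k at 0.55, Atp5h at 0.38, Cox6c at 0.32, Cox7b at 0.31, Atp5o at 0.25, Uqcr10 at 0.19, Uqcrh at 0.17 and Cox6b1 at 0.12. The other 8 with separate groups before the offset overlapped with it: Cox8a went from 0.43 to 0.20, Cox7a2 from 0.30 to 0.11, Atp5e from 0.24 to 0.00, Atp5j2 from 0.24 to 0.09, Cox4i1 from 0.21 to 0.00, Cox7a2l from 0.21 to 0.08, Uqcrc1 from 0.18 to 0.05 and Atp5b from 0.13 to 0.06. Sdhc stood at 0.27 and Cox7c at -0.46. The part of RNA fragmentation or library preparation in the length relation was not tested.

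**Figure D4:**
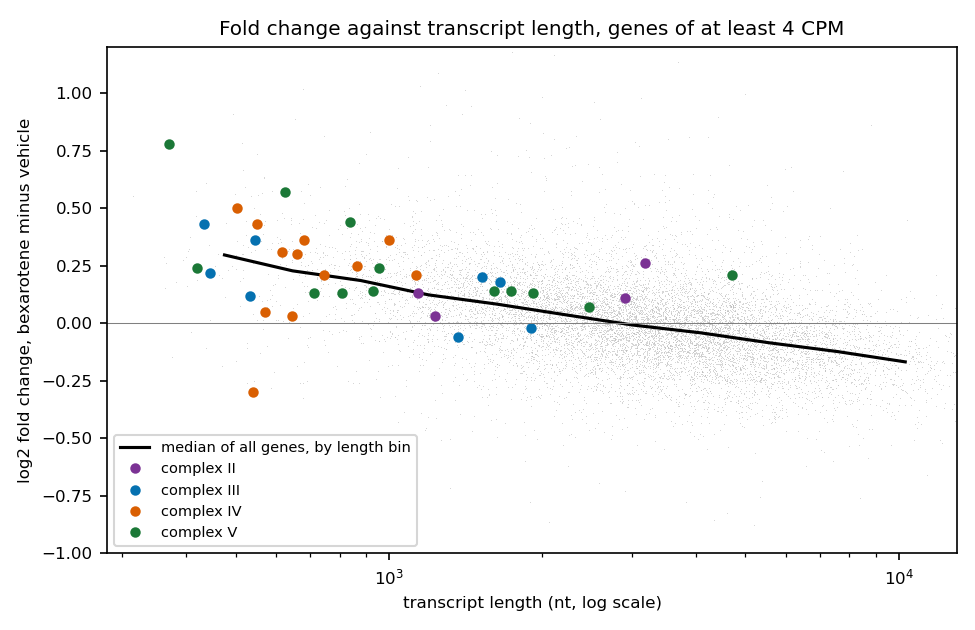
Log2 fold change (y axis) against transcript length (x axis, nt, log scale) for genes of at least 4 CPM; grey dots are all genes, coloured points subunits and the black line the median of all genes by length bin. Subunits lie mostly in the short range, where the line is above 0, with Cox7c (540 nt, -0.30) far below it and Atp5k (371 nt, 0.78), left of the shortest bin, above the line's highest point.

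**Figure D5:**
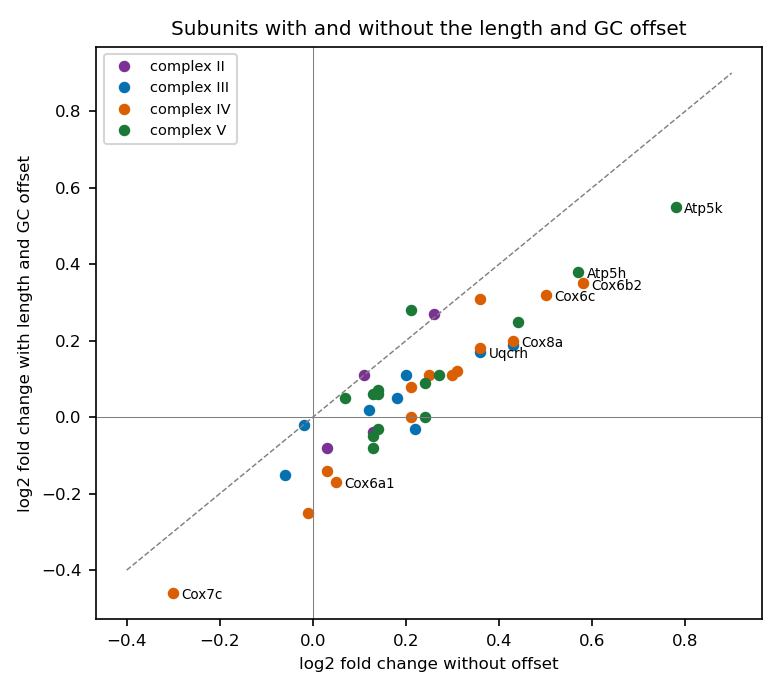
Log2 fold change of the 40 subunits of at least 1 CPM without (x axis) and with (y axis) an offset for transcript length and GC content; the dashed line marks equal values. Most points lie below the line, and Atp5k keeps the highest value, 0.55.

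Other mitochondrial genes were set beside the subunits by lists chosen with earlier results of these data known. Complex I, the NADH dehydrogenase that feeds the same chain, had 34 of 36 subunits positive with a median log2 fold change of 0.30, and 23 had separate groups, higher. Of all genes tested 50.2% were positive and 3.61% separate and higher. Of all genes under 1000 nt these shares were 73% and 12.8%. Of 9 tested subunits and carriers that the symbol pattern leaves out, 9 were positive (median 0.25). They included Atpif1, the inhibitor of ATP synthase, with 115, 90.6, 109 and 89.1 CPM in treated and 68.5, 77.6, 81.2 and 73.2 CPM in vehicle libraries, without overlap (0.42 ± 0.10). Ndufa4, now counted in complex IV, measured 129 to 148 CPM against 106 to 127 CPM, also without overlap (0.25 ± 0.08). Cyc1, the cytochrome c1 of complex III, had 0.11 ± 0.08 with overlapping groups.

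As lists, genes that build or regulate the complexes stood near 0. Medians were -0.01 over 3 assembly factors of complex II and 4 of complex III, 0.00 over 13 of complex IV and 0.03 over 3 of complex V. Cox17, a copper carrier for complex IV, had 0.33 ± 0.12, and Cox11, which also delivers copper, -0.23 ± 0.09; in Cox11 every treated library lay below every vehicle library (11.4 to 13.5 against 14.1 to 15.4 CPM). Of 16 genes in the TCA cycle list, which includes Pdha1, Pdhb and Dlat of pyruvate dehydrogenase, 11 were positive, with a median of 0.03. In 2 of them the groups were separate, higher: Suclg1 (0.24 ± 0.06) and Mdh2 (0.19 ± 0.07). Over all genes tested 50.2% were positive, 3.61% separate and higher, and 2.16% separate and lower. Of 12 genes for the outer membrane, import and carriers 10 were positive (0.05), and of 12 regulators of mitochondrial biogenesis 5 were (-0.06). Ppargc1a, the coactivator that promotes mitochondrial biogenesis, averaged 30.6 ± 4.96 CPM in treated and 38.3 ± 8.39 CPM in vehicle libraries (SD, n = 4; log2 fold change -0.32 ± 0.17, groups overlapping). Gabpa, the DNA-binding part of GABP, was lower in each treated library (22.9 to 25.4 against 26.4 to 29.6 CPM; -0.20 ± 0.08). No gene of these lists passed edgeR's quasi-likelihood test after adjustment. Median transcript lengths were 760 nt for complex I, 2590 nt for the TCA cycle list and 3710 nt for the regulators.

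Among markers of other cell types no gene passed edgeR's quasi-likelihood test after adjustment, and the summed levels of 2 lists were separate between groups, both higher with bexarotene. These were choroid plexus, with a median log2 fold change of 1.52 over 6 markers (groups separate in Ttr alone), and microglia, with 0.38 (groups separate in 4 of 6). Over all genes tested 3.61% were separate and higher, and over genes of 1000 nt or more 2.90%. The part of these 2 lists in the subunit values was not tested. The 6 microglia markers summed to 318 to 425 CPM in treated and 247 to 308 CPM in vehicle libraries. The cortical neuron markers had a median log2 fold change of -0.18, with 1 of 8 positive, and the 7 striatal markers 0.82. The other sums overlapped: astrocyte markers summed to 1270 to 1660 against 1240 to 1320 CPM, oligodendrocyte markers to 1420 to 2330 against 1130 to 2530 CPM, endothelial markers to 111 to 160 against 91.7 to 129 CPM and red blood cell markers to 4.59 to 37.5 against 7.71 to 16.8 CPM. Without bexarotene replicate 2, the library with the most choroid plexus RNA, the median of the subunits was 0.23.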

How the data were processed

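Gene expression was measured by RNA sequencing of mouse cortex, 4 bexarotene and 4 vehicle libraries. Per the labels' protocols, stranded TruSeq mRNA libraries were made from RNeasy-extracted RNA. The authors deposited raw read counts per RefSeq transcript; per the submitters' processing notes the build was mm9 and edgeR was used. The aligner, counter, strand setting and annotation release were not given in the sources used here; without strand, reads of a gene and an antisense partner cannot be separated. Members, lists and alternatives were chosen with earlier results of these data known.

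Groups and replicate numbers came from the titles. Counts were fitted with edgeR's quasi-likelihood test (edgeR 4.0.16, R 4.3.3; TMM, default filter, robust, group only), with Benjamini-Hochberg adjustment over 21285 rows, for 16069 genes; an adjusted p below 0.05 was called. The SE derives from the F statistic. The script was tested on simulated counts. Log2 CPM used a prior count of 2. Alternatives included DESeq2 1.42.0, edgeR's exact test, other scalings, leaving out each library, a replicate block, and an offset per library from splines (5 degrees of freedom) of transcript length and GC content, taken from GENCODE M21 transcripts matched by RefSeq accession (97% of rows). No mm9 coordinates were used; promoters are GRCm38.p6.

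Libraries with the same number deviated together from their groups, with correlations of 0.43, 0.28, 0.14 and 0.16 over genes, all above 0.1, and the numbers were treated as pairs in the block. Libraries with unlike numbers also passed 0.1: bexarotene replicate 3 with vehicle replicate 1 (0.44), 4 with 2 (0.23) and 2 with 4 (0.20). These values do not show that a number marks a pair. Named genes were, per complex, the most abundant, the 3 with the smallest p and the lowest fold change above 1 CPM, with isoform partners and all of complex II (29 members); other members named were chosen after their values were seen.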

Additional observations from a re-analysis of the deposited data

Results flagged for a closer look

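Each named member's CPM was checked in both groups for a library far from the other 3, in 58 groups of 4. In 2 groups the gap to the nearest library exceeded the 95% limit of Dixon's test, where chance alone gives about 1 in 20. Sdhb was at 88.2 CPM in bexarotene replicate 4, where the next treated library was at 94.7 CPM. Atp5g2 was at 0.844 CPM in vehicle replicate 2, where the next vehicle library was at 0.502 CPM.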

How the results depend on the processing

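Members called were 6 with DESeq2, 2 with edgeR's exact test and 7 with replicates 1 and 3 alone (where 2.06% of all genes were called higher), and 0 in each of the other alternatives. With the replicate block 0 members passed, and the block changed no call; its median over subunits was 0.21. The length and GC offset moved the median of all subunits from 0.21 to 0.09 and those of complexes II, III and IV to 0.04, 0.04 and 0.12, with or without the block, and reduced the members with separate groups from 16 to 8 (all genes: 3.61% and 2.44%). Within replicates 1 and 3 the medians were 0.34 for all subunits and 0.10, 0.28, 0.37 and 0.32 for complexes II to V, with 34 members separate (29.9% of all genes, 2 against 2 libraries). Within replicates 2 and 4 they were 0.14 for all subunits and 0.14, 0.12, 0.18 and 0.13, with 23 members separate (18.5% of all genes). Leaving out 1 library gave 0.16 to 0.25 for all subunits, 0.10 to 0.13 for complex II, 0.15 to 0.22 for III, 0.24 to 0.34 for IV and 0.13 to 0.27 for V. It left 41 to 45 members positive (49.7 to 53% of all genes), 16 to 23 separate and 0 called. With fewer libraries separation is easier for every gene: 3.99 to 6.77% of all genes were separate and higher in these fits, against 3.61% with all libraries. The 29 members named by rule kept their sign in all but 24 of 609 refits of these libraries. Of the other members, Cox5a (-0.14), Atp5j (-0.08), Atp5d (-0.03) and Uqcr11 (-0.03) turned negative under the offset and are not in this tally. Under the offset, alone and with the block, Atp5g2 (-0.12 and -0.10), Atp5g3 (-0.05 in both), Cox6a1 (-0.17 in both), Sdhb (-0.04 in both) and Sdhd (-0.08 in both) turned negative. Within replicates 2 and 4 so did Atp5g2 (-0.33), Cox6a1 (-0.09) and Cox7a1 (-0.23), and within replicates 1 and 3 Sdhd (-0.04). Cox4i2 turned positive with upper quartile scaling (0.02), no composition factor (0.03) and replicates 1 and 3 (0.35), and in 4 leave-one-out fits (0.02 to 0.17). Leave-one-out fits also reached -0.04 for Atp5g2, ranged from -0.04 to 0.11 for Cox6a1 and from -0.01 to 0.06 for Sdhd. The cause was not tested. Counts limit the members under 1 CPM (Cox8b, Cox7b2, Cox7a1 and Atp5g2), whose fold changes had SEs of 0.40 to 1.05.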
